A study of Mus musculus with 12 samples.

Results

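Genes for extracellular antagonists of WNT signaling were described in W-20 cells, a murine bone marrow stromal cell (BMSC) line. The 9 genes were taken by name out of the 56980 genes of the count matrix, although earlier results of these data were known. Each name matched 1 gene identifier. They comprised the secreted frizzled-related proteins *Sfrp1*, *Sfrp2*, *Sfrp4* and *Frzb*, the WNT inhibitory factor *Wif1*, the dickkopf genes *Dkk1*, *Dkk2* and *Dkk3*, and *Kremen1*, which encodes a membrane receptor of dickkopf proteins and is not itself secreted. In the canonical pathway, WNT ligands bridge Frizzled receptors and the coreceptors LRP5 and LRP6, which stabilizes beta-catenin, and in bone this signaling favors osteoblast formation. SFRP proteins, FRZB and WIF1 bind WNT ligands outside the cell, whereas DKK1 and DKK2 bind LRP5 and LRP6 and Kremen proteins help to remove the bound coreceptor from the cell surface. DKK3 is a divergent member of the dickkopf family whose action on WNT signaling is less well defined.

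Bulk RNA-Seq comprised 12 libraries, 3 in each of 4 groups. Unmodified W-20 cells (WT) and a stable line titled Y428F were exposed for 2 hours to 50 nM parathyroid hormone (PTH), the hormone that regulates calcium and bone remodeling, or to vehicle (PBS). The Y428F line was made from W-20 cells with a plasmid for Flag-tagged YAP, the transcriptional coactivator of the Hippo pathway, in which the tyrosine Y428 was changed to phenylalanine, and puromycin-resistant clones were selected. By the study's text, the sequenced line carried this mutation together with a serine-to-alanine change at a site of the kinase LATS1 in the same protein. The titles name Y428F alone, and the genotype label of the Y428F libraries reads WT. No line with an introduced wild-type YAP or with the serine change alone was analyzed here, so effects of the Y428F mutation cannot be told apart from other differences between the lines. The libraries held between 17127897 and 19057319 counts (median 17740980). The spread between replicate libraries exceeded counting noise in every pair, at 2.94 to 15.2 for chi-square per degree of freedom. The labels do not say whether replicates were separate cultures, so p-values measure the spread between these libraries.

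Of 13 marker genes of stromal and mesenchymal cells, 11 had enough counts to be tested. *Col1a1*, *Col1a2* and *Vim* were at 7048 ± 716, 12830 ± 930 and 4726 ± 223 CPM (SD, n = 3) in WT cells with vehicle. *Thy1* had 0 counts in all 12 libraries and *Nt5e* at most 2. CPM are counts scaled to a common library size with edgeR's TMM factors, and "per kilobase" means CPM divided by the length of the gene's exons, which allows genes to be compared. A gene was called higher or lower when its Benjamini-Hochberg-adjusted p in the quasi-likelihood test of edgeR was under 0.05. The adjustment covered all genes with 10 or more counts in total.

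*Sfrp2* was by far the most abundant of the 9 transcripts. In WT cells with vehicle its level was 781.6 ± 61.8 CPM per kilobase (SD, n = 3), which ranked 22 among the 20114 genes with a count in that group. *Kremen1* followed with 5.162 ± 0.577 CPM per kilobase and *Frzb* with 0.4738 ± 0.0626. *Sfrp2* made up 99.2% of the summed level per kilobase of the 9 genes in this group and 92.0% in Y428F cells with vehicle. Its rank was 25 of 19763 genes in WT cells with PTH, 483 of 21043 in Y428F cells with vehicle and 492 of 20752 in Y428F cells with PTH. *Kremen1* ranked 5981 and 6131 in WT cells with vehicle and with PTH, and 6120 and 6476 in Y428F cells with vehicle and with PTH.

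*Dkk3* was at 0.209 ± 0.0654 CPM per kilobase and *Wif1* at 0.102 ± 0.0143 in WT cells with vehicle. *Dkk2* and *Sfrp4* were lower still, at 0.0213 ± 0.0262 and 0.00844 ± 0.0146, and the ranges of their libraries overlapped. *Sfrp1* and *Dkk1* had 0 counts there. In this group each of the first 5 genes in the order, from *Sfrp2* to *Wif1*, lay above the next in every library, whereas *Dkk2* and *Sfrp4* did not differ beyond their spread. Among genes with a count in the group, *Dkk2* overlapped with *Dkk3*, *Wif1* and *Sfrp4* in WT cells with PTH, and *Dkk2*, *Sfrp4* and *Wif1* overlapped in Y428F cells with vehicle. In Y428F cells with PTH, *Frzb* and *Dkk3* overlapped, *Dkk3* overlapped with *Dkk2*, *Sfrp4* and *Sfrp1*, and these 3 overlapped with each other and with *Wif1*. With the length of the longest transcript in place of all exons, *Kremen1* was at 12.8 CPM per kilobase, and *Sfrp2* made up 98.4% of the sum in the WT and 84.1% in the Y428F line with vehicle.

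**Figure D1:**
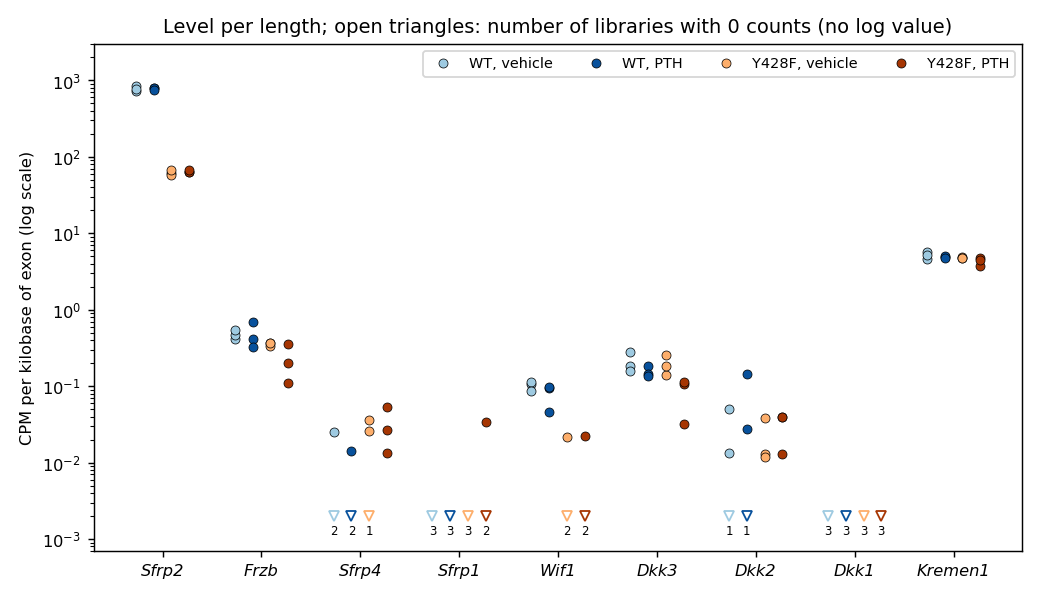
CPM per kilobase of exon (log axis) of the 9 genes, with 1 point per library in 4 groups and open triangles for the number of libraries at 0 counts. *Sfrp2* lies above the other 8 genes in all 12 libraries, with means of 781.6 and 62.23 in WT and Y428F cells with vehicle, and *Dkk1* is at 0 throughout.

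*Sfrp2* (ENSMUSG00000027996.14) lies at chr3:83673481-83681623 on the plus strand of GRCm39 and has 3 exons in its longest transcript. Its product is a soluble decoy whose cysteine-rich domain resembles that of Frizzled receptors. The 3 WT libraries with vehicle had 1947, 1664 and 1782 CPM, and the 3 with PTH had 1841, 1854 and 1700 CPM. The 3 Y428F libraries with vehicle had 141.6, 134.2 and 153.6 CPM, and those with PTH had 144.3, 146.4 and 153.5 CPM. All 6 Y428F libraries were far below all 6 WT libraries, whereas vehicle and PTH libraries of the same line overlapped. With vehicle, *Sfrp2* was 12.6-fold lower in Y428F than in WT cells (log2 fold change -3.65, SE 0.0725, Benjamini-Hochberg-adjusted p = 8.56e-19, edgeR quasi-likelihood test). With PTH it was 12.1-fold lower (log2 fold change -3.60, SE 0.0723, adjusted p = 1.26e-18). In bulk RNA, fewer cells that express a gene and less RNA in each cell cannot be told apart.

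PTH did not change *Sfrp2* detectably in either line. Its log2 response to the hormone was 0.0067 in WT cells (95% interval -0.157 to 0.171, adjusted p = 0.974) and 0.049 in Y428F cells (-0.0916 to 0.19, adjusted p = 0.735). In the fit of all 12 libraries the WT response was 0.000472. The difference between the responses of the lines in that fit was 0.049, with an interval of -0.146 to 0.243 (adjusted p = 0.966, edgeR quasi-likelihood test). Over the other settings tried, the line difference stayed within -3.71 to -3.59 (log2) for vehicle and -3.66 to -3.53 for PTH, and *Sfrp2* was called in all 20 settings of each. Between the lines with vehicle, 5773 genes that averaged 10 CPM or more were called, among which *Sfrp2* had the 46th largest absolute change and ranked 28 among those that were lower. An antisense lncRNA, Gm26771, overlaps *Sfrp2* by 484 bases and had at most 1 count in any library.

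**Figure D2:**
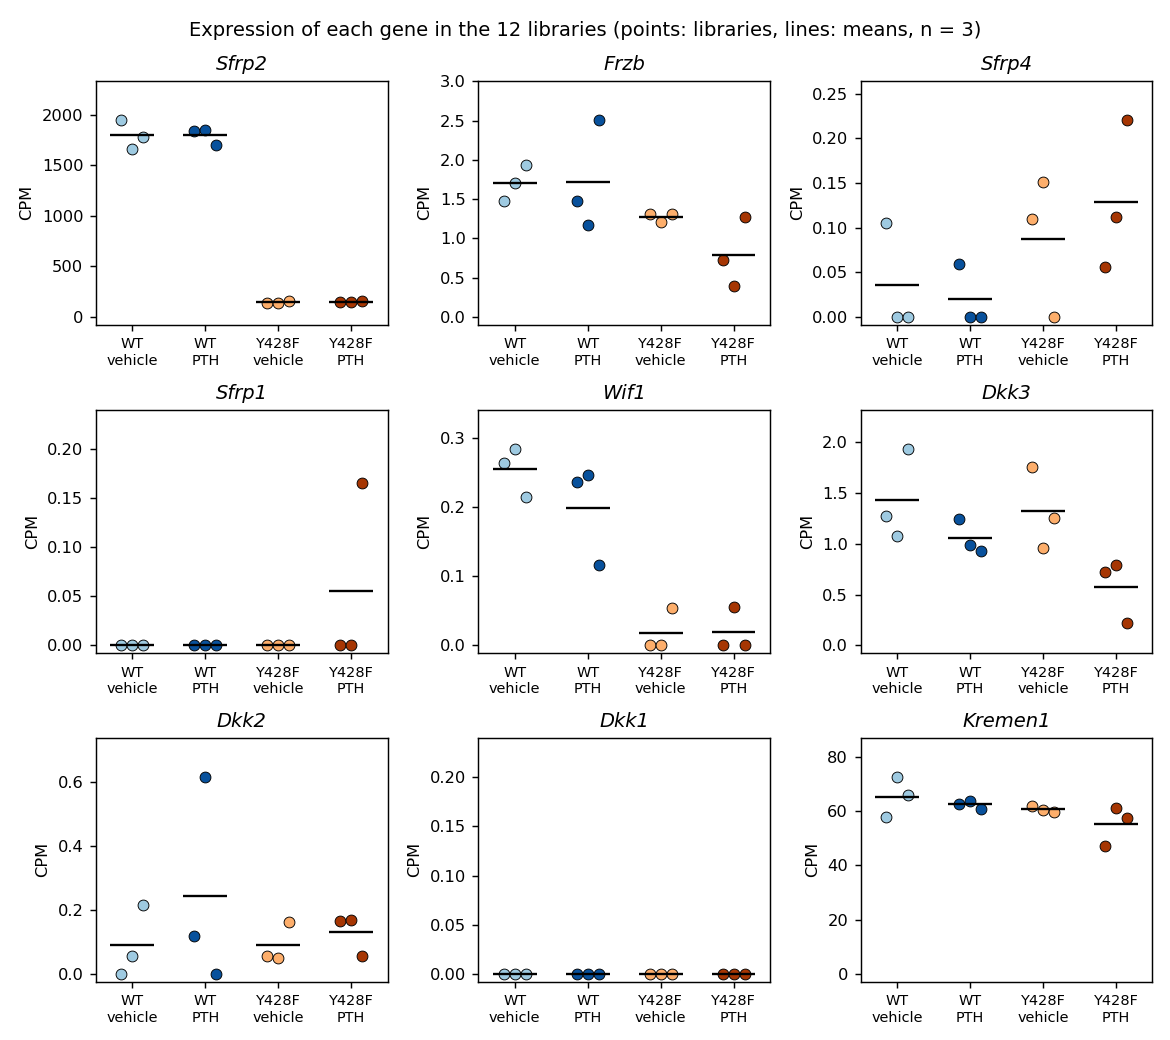
CPM of each of the 9 genes (linear axes that differ between panels), with 1 point per library, horizontal lines at the means and n = 3 in each of 4 groups. *Sfrp2* falls into separate ranges by line, at 1664 to 1947 CPM for WT and 134.2 to 153.6 CPM for Y428F, and *Kremen1* stays between 46.97 and 72.45 CPM.

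*Wif1* (chr10:120869865-120936555, plus strand), whose secreted product binds WNT ligands through a domain unrelated to that of SFRP proteins, was the other gene that was lower in Y428F cells with either treatment. It had 5, 5 and 4 counts in the WT libraries with vehicle and 4, 4 and 2 in those with PTH. In Y428F cells it had 0, 0 and 1 counts with vehicle and 0, 1 and 0 with PTH. Every WT library thus had more *Wif1* counts than every Y428F library, but the gene passed the limit of 10 total counts through the WT libraries alone. The level in WT cells with vehicle was 0.254 ± 0.0359 CPM (SD, n = 3). Summed over libraries and corrected for library size, *Wif1* was 14.3 times as high in WT as in Y428F cells with vehicle (counting interval 2.18 to 605) and 10.7 times as high with PTH (1.52 to 465).

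The fitted log2 fold change of *Wif1* was -3.40 with vehicle (SE 1.12, Benjamini-Hochberg-adjusted p = 0.0169, edgeR quasi-likelihood test) and -3.01 with PTH (SE 1.16, adjusted p = 0.0399). The call with vehicle was lost without Y428F vehicle library 1 or 2 (adjusted p = 0.0588 and 0.0627). The call with PTH was lost without WT PTH library 1 or 2 (0.0833 and 0.0912), without Y428F PTH library 1 or 3 (0.115 and 0.117), with DESeq2 (0.0682), with the replicate number as a block (0.0625) and with no filter on low counts (0.0926). In these settings the log2 fold change stayed between -3.31 and -2.57. It moved to -5.23 with vehicle without Y428F vehicle library 3 and to -4.90 with PTH without Y428F PTH library 2, which leave the Y428F group at 0 counts, so these values are not bounds. The log2 response of *Wif1* to PTH was -0.34 in WT cells (adjusted p = 0.831), and in Y428F cells 1 count in each group gives no ratio to interpret.

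The sequence before the starts of *Sfrp2* and *Wif1* is shown, a choice made after their values were seen. *Sfrp2* was lower in Y428F cells in every setting. *Wif1* was called lower from few counts, could be tested only through the WT libraries, and lost its call in some settings. RefSeq promoters of GRCm39 were given for 5 of the 9 genes, *Frzb*, *Sfrp2*, *Dkk2*, *Wif1* and *Dkk1*. The bases printed are those of the 250 bases before the RefSeq start that also lie before the start of the gene in GENCODE vM39, on the plus strand, 5′ to 3′, with CG dinucleotides in capitals. They span chr3:83673378-83673480 for *Sfrp2* and chr10:120869659-120869864 for *Wif1*.
Sfrp2: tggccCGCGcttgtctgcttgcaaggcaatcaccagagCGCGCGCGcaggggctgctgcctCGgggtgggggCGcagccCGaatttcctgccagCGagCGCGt
Wif1: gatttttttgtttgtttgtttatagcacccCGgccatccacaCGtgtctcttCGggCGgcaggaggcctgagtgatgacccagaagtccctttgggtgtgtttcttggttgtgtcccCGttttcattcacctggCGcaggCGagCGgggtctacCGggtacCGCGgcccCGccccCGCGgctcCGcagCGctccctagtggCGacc
These stretches hold 12 CG dinucleotides in 103 bases for *Sfrp2* and 17 in 206 bases for *Wif1*. Of the whole 250 bases, 147 for *Sfrp2* and 44 for *Wif1* lie inside the GENCODE gene. In these 250 bases the counts were 16 and 21, against a median of 6 over 32841 RefSeq promoters of that length. Of all these promoters, 74.6% had fewer than *Sfrp2* and 83.6% fewer than *Wif1*. GC content was 63.6% and 62.8%, against a median of 52.4%, and was lower in 80.0% and 78.3% of promoters. *Frzb* had 16 CG dinucleotides, *Dkk2* 7 and *Dkk1* 6. Promoters were also searched on both strands for 3 motifs. The TEAD motif CATTCC, bound by the DNA-binding partners of YAP, was in none of the 5 promoters and in 12.6% of all promoters. The TCF/LEF motif CTTTGA was in 2 of the 5, those of *Dkk1* and *Frzb*, and in 13.8% of all. The cAMP response element core TGACG was in none of the 5 and in 17.8% of all. These letters describe the windows only, and no protein binding was measured.

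*Frzb* (chr2:80242313-80278304, minus strand), also known as *Sfrp3* and first described as a cartilage product, was expressed at a low level. The WT libraries had 1.48, 1.71 and 1.93 CPM with vehicle and 1.47, 1.17 and 2.50 CPM with PTH. The Y428F libraries had 1.31, 1.21 and 1.31 CPM with vehicle and 0.721, 0.393 and 1.27 CPM with PTH. With vehicle all 3 Y428F libraries were below all 3 WT libraries, whereas with PTH the lines overlapped. The log2 fold change between the lines was -0.41 with vehicle (SE 0.343, adjusted p = 0.356), which was not called, and -1.11 with PTH (SE 0.37, adjusted p = 0.0184), which was called lower. The latter call was lost without WT PTH library 3 (log2 fold change -0.73, adjusted p = 0.15), Y428F PTH library 1 (adjusted p = 0.0525) or Y428F PTH library 2 (adjusted p = 0.0923). The log2 response of *Frzb* to PTH was 0.021 in WT cells (adjusted p = 0.982) and -0.68 in Y428F cells (adjusted p = 0.29). The difference in response was -0.69, with an interval of -1.75 to 0.363 (adjusted p = 0.86).

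*Sfrp4* and *Sfrp1*, the remaining SFRP genes, were at or near the limit of detection. *Sfrp4* (chr13:19807274-19817164) had 2, 0 and 0 counts in WT cells with vehicle and 1, 0 and 0 with PTH, and in Y428F cells it had 2, 3 and 0 counts with vehicle and 1, 2 and 4 with PTH. It reached 10 counts in the fit of all 12 libraries and not in that of the 6 WT libraries, and none of its comparisons was called (adjusted p from 0.192 to 0.958). *Sfrp1* (chr8:23901263-23939648) had 3 counts in Y428F PTH library 3 and 0 in each of the other libraries, and was not tested. A count of 0 allows a level of up to 0.152 to 0.185 CPM, depending on the library, when 3 counts are taken as the limit. This limit covers counting error only.

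Among the dickkopf genes, *Dkk1* (chr19:30523263-30527065), the best known antagonist of LRP5 and LRP6 in bone, had 0 counts in all 12 libraries. *Dkk2* (chr3:131790336-131886065) had 0, 1 and 4 counts in WT cells with vehicle and 2, 10 and 0 with PTH. In Y428F cells it had 1, 1 and 3 counts with vehicle and 3, 3 and 1 with PTH. All groups overlapped, and no comparison of *Dkk2* was called (adjusted p from 0.55 to 0.994). The 95% interval of its log2 fold change between the lines was -2.59 to 2.55 with vehicle and -3.09 to 1.37 with PTH.

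*Dkk3* (chr7:111712904-111758760, minus strand) was the dickkopf gene with the most counts. The WT libraries had 1.27, 1.08 and 1.93 CPM with vehicle and 1.24, 0.984 and 0.932 CPM with PTH. The Y428F libraries had 1.75, 0.960 and 1.26 CPM with vehicle and 0.721, 0.786 and 0.220 CPM with PTH. The 3 Y428F libraries with PTH were below every other library for this gene. Its log2 response to PTH in this line was -1.19 (SE 0.41), with an unadjusted p of 0.00896 and a Benjamini-Hochberg-adjusted p of 0.0652 (edgeR quasi-likelihood test), which was not called. With no filter on low counts, the adjusted p was 0.0337. In WT cells the response was -0.43 (adjusted p = 0.502), and the difference in response was -0.75, with an interval of -1.92 to 0.421 (adjusted p = 0.866). Between the lines the log2 fold change was -0.12 with vehicle (adjusted p = 0.832) and -0.86 with PTH (adjusted p = 0.106).

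*Kremen1* (chr11:5141548-5211727, minus strand), a coreceptor that binds DKK1 and DKK2 and assists them in removing LRP6, was well expressed although both of these ligand genes were at or near 0. The WT libraries had 57.9, 72.5 and 65.8 CPM with vehicle and 62.8, 63.7 and 60.8 CPM with PTH. The Y428F libraries had 61.8, 60.5 and 59.7 CPM with vehicle and 47.0, 61.0 and 57.5 CPM with PTH. All groups overlapped. The log2 response to PTH was -0.059 in WT cells (95% interval -0.233 to 0.116, adjusted p = 0.728) and -0.14 in Y428F cells (-0.314 to 0.0388, adjusted p = 0.35). Between the lines it was -0.11 with vehicle (-0.282 to 0.067, adjusted p = 0.323) and -0.18 with PTH (-0.356 to -0.0024, adjusted p = 0.0924). Without WT vehicle library 1 or Y428F PTH library 2, the adjusted p with PTH was 0.0428 and 0.017.

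None of the 9 genes was called for PTH in either line. In WT cells 0 of the 6 tested were called, against 11.8% of the 15583 genes tested (6.88% higher and 4.91% lower), and 0 had an unadjusted p under 0.05, against 25.2% of all genes (edgeR quasi-likelihood test). The share of all genes called was 5.94% without WT PTH library 1 and 14.6% without WT vehicle library 1, with 0 of the tested members called in both. In Y428F cells 0 of 7 were called, against 12.4% of 17691 genes (6.61% higher and 5.78% lower), and 1, *Dkk3*, had an unadjusted p under 0.05, against 24.4% of all genes. DESeq2 called 0 in both lines, with no adjusted p for 2 and 3 of the genes, against 15% and 19.4% of all genes. The median log2 fold change was -0.0259 for the genes tested in WT cells and 0.0427 in Y428F cells, beside -0.0148 and -0.00674 for all genes.

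Between the lines, 2 of 7 were lower with vehicle, *Sfrp2* and *Wif1*, and 0 were higher, against 45.1% of 17691 genes called (22.4% higher and 22.7% lower). With PTH, 3 of 7 were lower, *Sfrp2*, *Frzb* and *Wif1*, against 45.7% of genes called, with 22.8% higher and 23% lower. These counts include *Wif1*, which could be tested only because of its counts in WT libraries, and they are given as a description and not as support. *Sfrp4* likewise reached 10 counts through the Y428F libraries. The median log2 fold change of the 7 genes was -0.116 with vehicle and -0.864 with PTH, beside 0.0122 and 0.0189 for all genes. Both medians are the values of *Dkk3*, which was not called in either comparison. *Wif1*, *Dkk2* and *Sfrp4* averaged only 0.123, 0.139 and 0.0678 CPM over the 12 libraries. For the difference in response to PTH, edgeR's quasi-likelihood test called 0 of 7, against 0.413% of genes (0.17% higher and 0.243% lower), 0 had an unadjusted p under 0.05 and DESeq2 called 0, against 7.05% and 1.02% of all genes. The comparisons share libraries, since each line's vehicle and PTH groups enter both the PTH and the line comparisons.

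**Figure D3:**
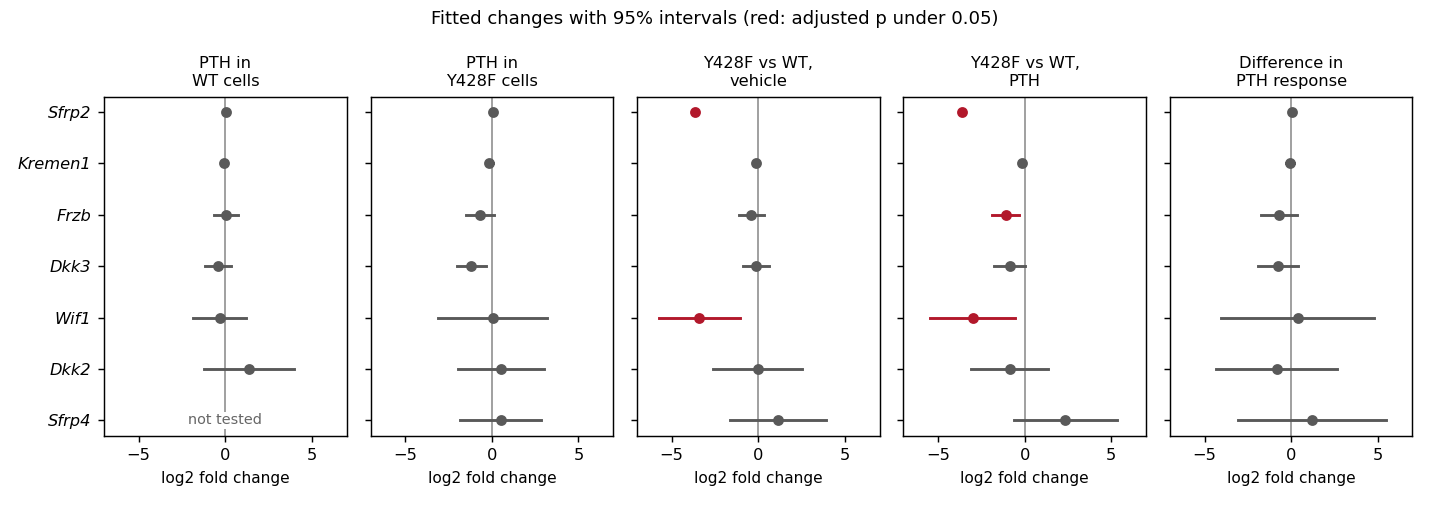
Log2 fold changes (points) with 95% intervals (lines) of the 7 genes tested in 5 comparisons, red at an adjusted p under 0.05. *Sfrp2* lies at -3.65 and -3.60 between the lines and close to 0 for PTH, and the intervals of *Wif1*, *Dkk2* and *Sfrp4* are wide.

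Of the 4 other genes of these families, *Sfrp5*, *Dkk4*, *Dkkl1* and *Kremen2*, none reached 10 counts, and *Dkk4* had 0 counts throughout. Among 12 other inhibitors of WNT signaling that act outside the cell or at its membrane, 7 were tested between the lines with vehicle, and 2 were higher, 2 lower and 3 not called in Y428F cells, beside 45.1% of all genes called (22.4% higher and 22.7% lower). *Igfbp4*, whose product binds insulin-like growth factors and also Frizzled receptors, was at 46.6 ± 4.49 CPM in WT and 76.3 ± 3.54 CPM in Y428F libraries with vehicle (log2 fold change 0.71, adjusted p = 1.94e-08). *Znrf3*, a ubiquitin ligase that removes Frizzled receptors, was also higher, at 0.55 (adjusted p = 0.00174). *Draxin*, a secreted axon guidance factor, and *Trabd2b*, a membrane protease that cleaves WNT proteins, were lower, at -1.74 (adjusted p = 2.83e-06) and -0.96 (adjusted p = 6.28e-06). *Apcdd1* and *Rnf43* were not called, with log2 fold changes of 0.23 and -0.22, nor was *Shisa2*, which had at most 4 counts in any library. With PTH between the lines 2 were higher and 2 lower, beside 22.8% and 23% of all genes. For PTH itself, 0 of these genes were called in either line (edgeR quasi-likelihood test), beside 11.8% of all genes in WT and 12.4% in Y428F cells. *Sost*, *Sostdc1*, *Cer1* and *Shisa3* had 0 counts in all 12 libraries, and *Notum* had at most 8.

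Of 16 genes for Frizzled, LRP, ROR and RYK receptors, 12 were tested, and with vehicle 2 were higher, 5 lower and 5 not called in Y428F cells, beside 22.4% and 22.7% of all genes. Their median log2 fold change was -0.0901, beside 0.0122 for all genes. *Lrp5*, a coreceptor bound by DKK proteins, was at 14.2 ± 1.84 CPM in WT and 1.68 ± 0.226 CPM in Y428F libraries with vehicle (log2 fold change -3.07, adjusted p = 9e-13). *Lrp6*, the other coreceptor, which was chosen after its values were seen, was at 160.7 ± 19.2 and 154.0 ± 1.04 CPM (log2 fold change -0.061, adjusted p = 0.609). *Lrp4* and *Fzd5* were lower, at -2.12 and -1.38, and *Fzd1* and *Fzd4* were higher, at 1.12 and 0.80. With PTH between the lines, 2 were higher and 6 lower, beside 22.8% and 23% of all genes. PTH itself raised *Fzd7* in both lines, by 0.43 in WT and 0.26 in Y428F cells on the log2 scale, and *Fzd2* was lower with PTH in both, at -0.25 and -0.28. *Lrp4* and *Fzd8* also fell with PTH in Y428F cells, and the difference in response was called for 0 of the 12, beside 0.413% of all genes.

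Among 19 WNT ligand genes, 9 were tested in the 12 libraries, of which 4 were higher and 1 lower in Y428F cells with vehicle, and 3 and 1 with PTH. Of all genes 45.1% and 45.7% were called in these comparisons. *Wnt10a*, with 0 counts in every WT library, and *Wnt7a*, with at most 3, reached 10 counts only through the Y428F libraries. The numbers of ligands called are therefore a description and not support. *Wnt5a* was the lower one, at 38.6 ± 2.60 CPM in WT and 25.1 ± 0.654 CPM in Y428F libraries with vehicle (log2 fold change -0.62, adjusted p = 1.19e-06). *Wnt4* was higher, at 0.98 (adjusted p = 0.000768). *Wnt10b* was not called between the lines and fell with PTH in both, by 0.30 in WT (adjusted p = 0.0179) and 0.33 in Y428F cells (adjusted p = 0.0075) on the log2 scale. Of 12 target genes of beta-catenin, 7 were tested between the lines, and 3 were higher and 2 lower with vehicle, and 3 and 2 with PTH, beside the same shares of all genes. *Lef1*, a transcription factor that partners with beta-catenin, was at 23.4 ± 1.57 CPM in WT and 2.16 ± 0.293 CPM in Y428F libraries with vehicle (log2 fold change -3.44, adjusted p = 1.77e-14). *Ccn4* and *Ccnd1* were higher, at 1.13 and 0.93. *Axin2*, a commonly used reporter of the pathway, had at most 1 count in any library, and *Nkd1*, *Nkd2* and *Sp5* were too low to be tested. These 4 genes were also named after their values were seen.

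**Figure D4:**
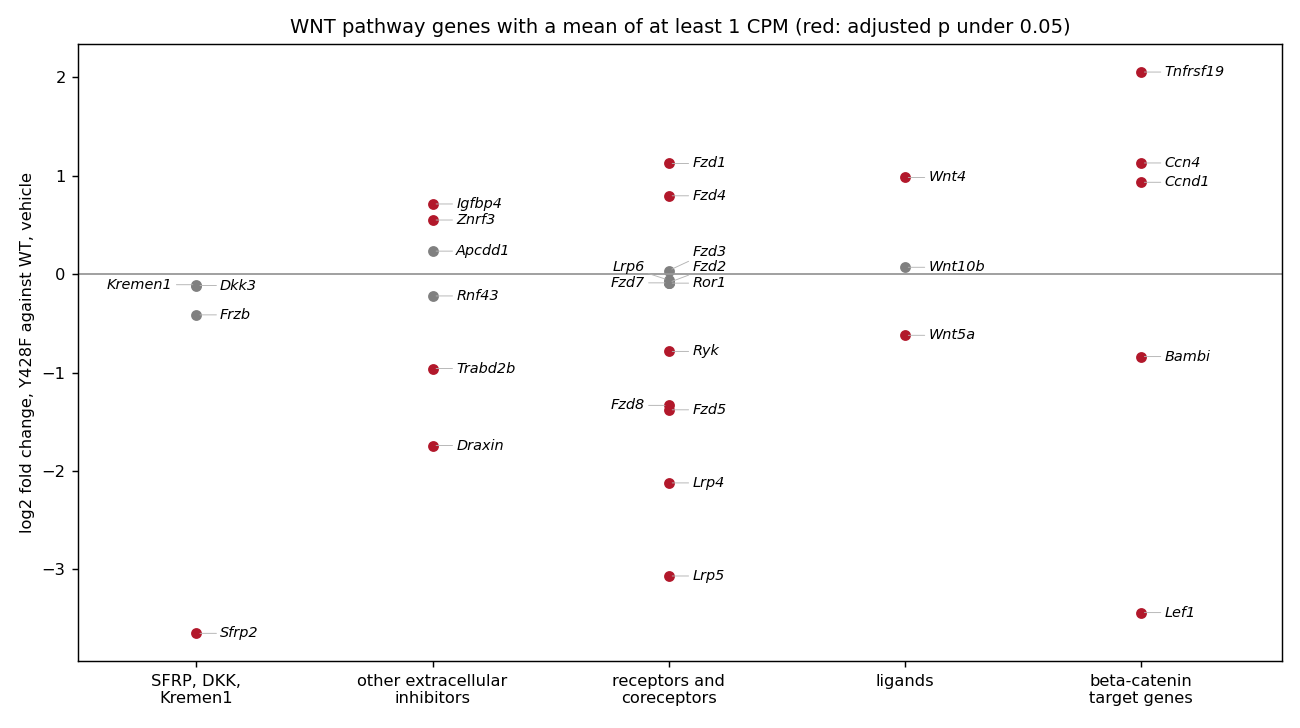
Log2 fold change of Y428F against WT cells with vehicle for genes that averaged 1 CPM or more, in 5 groups of WNT pathway genes, red at an adjusted p under 0.05. *Sfrp2* at -3.65, *Lef1* at -3.44 and *Lrp5* at -3.07 lie lowest, and each of the other 4 groups holds genes that were higher and genes that were lower.

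The region around *Sfrp2* was examined after its values were seen. Within 1 Mb, 8 genes averaged 2 CPM or more. With vehicle 3 of them were lower, 1 higher and 4 not called in Y428F cells, beside 45.1% of all genes called, with a median log2 fold change of 0.013. The lowest was *Tlr2*, 69 kb from *Sfrp2* between gene centers, at -0.93 with vehicle (adjusted p = 2.85e-08) and -0.65 with PTH. With PTH 3 were lower and 1 higher, beside 23% and 22.8% of all genes, with a median of -0.179. The lower genes were *Dchs2*, *Tlr2* and *Tmem131l* with vehicle and *Plrg1*, *Tlr2* and *Fhdc1* with PTH, so that *Tlr2* alone was called with both. With vehicle, over 569 genes of chromosome 3 with at least 2 CPM, the median was -0.17 and 62.4% were below 0, and with PTH these values were -0.167 and 63.1%. Other chromosomes that hold members had medians on both sides of 0 with vehicle. Chromosome 8 (*Sfrp1*) was at -0.133, with 63.7% of genes below 0. Chromosomes 2 (*Frzb*) and 7 (*Dkk3*) were at -0.0546 and -0.0209. Chromosomes 13 (*Sfrp4*), 19 (*Dkk1*), 11 (*Kremen1*) and 10 (*Wif1*) were at 0.119, 0.122, 0.179 and 0.245. The difference of *Sfrp2* was thus larger than that of every neighbor and of its chromosome, and the part of either in it was not tested.

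**Figure D5:**
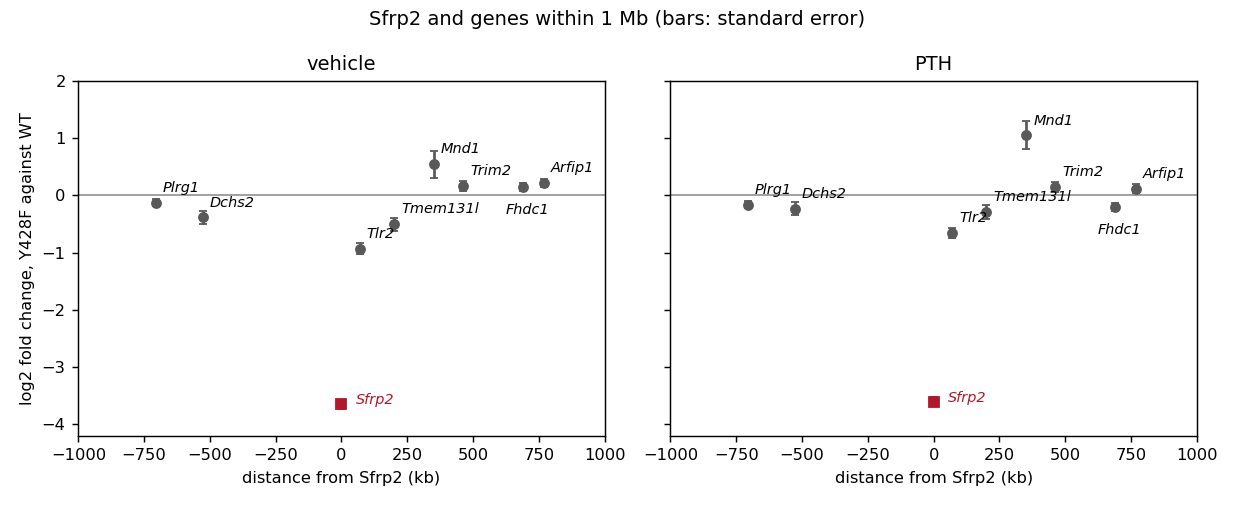
Log2 fold change of Y428F against WT cells, with vehicle and with PTH, of *Sfrp2* and 8 genes within 1 Mb against the distance between gene centers in kb, with bars for the standard error. All 8 neighbors lie between -0.93 and 1.05, and *Sfrp2* is near -3.6 in both panels.

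Profiles like those of *Sfrp2* and *Kremen1*, the 2 members that averaged 10 CPM or more, were sought among 9102 genes with that mean. The measure was the root mean square difference of log2 CPM over 12 libraries, after each gene was centered on its own mean. The genes closest to *Sfrp2* were *Pcdhb9*, a protocadherin gene (0.182), *Oas1a*, an interferon-inducible oligoadenylate synthetase gene (0.191), and *Ifi35*, an interferon-induced gene (0.205). Those closest to *Kremen1* were *Ralgapa1* (0.0502), *Resf1* (0.0513) and *Atf7* (0.0566). All of these values share the same libraries, and the profile of *Sfrp2* is mostly the difference between the lines, with an SD of 1.81 against 0.14 for *Kremen1*.

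Markers of cell types differed between the lines as well. Of the 11 stromal markers tested, 8 were lower and 2 higher in Y428F cells with vehicle, and 9 were lower and 2 higher with PTH, beside 45.1% and 45.7% of all genes called in either direction. The summed level of the 13 markers was 25733 to 29199 CPM in the WT and 18437 to 19803 CPM in the Y428F libraries with vehicle, and 26087 to 29509 and 15777 to 18738 CPM with PTH, and *Col1a2* was the most abundant. *Col3a1*, a fibrillar collagen gene, was at 836 ± 150 and 202.9 ± 6.06 CPM with vehicle (log2 fold change -2.04, adjusted p = 1.76e-12). Of 3 endothelial markers, 1, *Cdh5*, was higher, at 0.810 ± 0.282 and 7.95 ± 0.865 CPM, and *Pecam1* had at most 6 counts. The summed endothelial level was 0.569 to 1.07 CPM in WT and 7.50 to 9.06 CPM in Y428F libraries with vehicle. Of 5 blood and macrophage markers, 1, *Ptprc*, was higher, and their sum was 1.40 to 1.64 CPM in WT and 3.08 to 3.94 CPM in Y428F libraries with vehicle. Of 3 epithelial markers, 1, *Krt8*, was higher, *Epcam* had 0 counts throughout, and the sum was 0.322 to 0.796 and 2.29 to 3.72 CPM. The part of these markers in the *Sfrp2* and *Wif1* differences was not tested.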

How the data were processed

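RNA-Seq of 12 libraries was processed by the authors with STAR 2.7.10b on GRCm39 and the basic GENCODE annotation vM31, and the deposited expected counts per gene came from RSEM, not scaled for depth or length. The submitters' processing notes also name DESeq2. Reads were not analysed here. Groups came from library titles. The counts of the 9 genes were all whole, and others were rounded. Genes with 10 or more counts in total were fitted in R 4.3.3 with edgeR 4.0.16 (TMM, quasi-likelihood test, Benjamini-Hochberg adjustment), PTH in WT cells on its 6 libraries and the other comparisons on all 12. Exact intervals of count ratios are at 95%.

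The members and gene lists were chosen with earlier results of these data known. Named were the 9 genes, the other family members and inhibitors, from each other WNT list up to 3 called genes in each direction with the largest change and a mean of at least 2 CPM, and the 3 nearest profiles. Lengths and positions came from GENCODE vM39, to which 56236 identifiers matched and 744 did not. The protocols do not say whether the kit kept strand, so reads of overlapping antisense genes cannot be told apart. Alternatives were DESeq2 1.42.0, other scaling, other filters, a replicate block, a length correction (17560 genes with a length), a limit of 0.01, fits of 6 or 12 libraries, and each library left out.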

Additional observations from a re-analysis of the deposited data

How the results depend on the processing

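*Sfrp2* was called between the lines under every alternative tried. The number of members called with PTH in Y428F cells was 1 in place of 0 with no filter on low counts, beside 9.9% of 25074 genes. Between the lines with vehicle it was 1 in place of 2 with at least 10 counts in every library or a limit of 0.01. In these settings 61.4% of 11543 genes and 35.5% of 17691 genes were called, beside 45.1% in the main fit. With at least 10 counts in every library, only *Sfrp2* and *Kremen1* of the members were tested. With each library left out, the number called was 1 to 2, beside 40.9% to 46.6% of all genes. Between the lines with PTH it was 1 in place of 3 with at least 10 counts in every library or a limit of 0.01, beside 61.8% and 36.1% of genes. With each library left out it was 1 to 4, beside 42.1% to 47.7% of all genes. DESeq2, the replicate block and no filter each gave 2 there, without *Wif1*, beside 45.3%, 45.4% and 32.1% of all genes. The cause was not tested. With library totals only, the share of higher genes among all called fell from 58.4% to 38.0% with PTH in WT cells and from 53.4% to 38.1% in Y428F cells, and the median of all genes was -0.0732 and -0.0471.

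Some values close to 0 or from few counts changed sign, and none of them was called. With library totals only, the log2 fold change with PTH in WT cells was -0.0521 for *Sfrp2* and -0.0344 for *Frzb*, and that of *Dkk2* between the lines with vehicle was 0.0333. With the replicate block, the latter 2 were -0.0167 for *Frzb* and 0.00117 for *Dkk2*. With each library left out, ranges crossed 0 with PTH in WT cells for *Sfrp2* (-0.0412 to 0.0816), *Frzb* (-0.36 to 0.243) and *Kremen1* (-0.126 to 0.0262), and in Y428F cells for *Wif1* (-1.83 to 1.87) and *Sfrp4* (-0.0661 to 1.14). Between the lines they crossed 0 with vehicle for *Dkk2* (-0.716 to 1.48) and *Dkk3* (-0.375 to 0.166), and with PTH for *Dkk2* (-1.44 to 1.07). For the difference in response they did so for *Sfrp2* (-0.0223 to 0.0957), *Sfrp4* (-1.43 to 3.16), *Dkk2* (-2.33 to 1.09), *Wif1* (-1.49 to 2.21) and *Kremen1* (-0.159 to 0.0244).

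Same-numbered libraries of different groups did not deviate together. Over 18 pairs the mean correlation across genes was 0.0019 (range -0.031 to 0.037), and a library was closest to its own number in 12 of 36 cases. The replicate block left 0 members called for the hormone in either line, beside 10.5% (WT) and 12.8% (Y428F) of all genes. Between the lines it left 2 with vehicle and 2 with PTH, beside 45.1% and 45.4% of all genes. For the difference in response it left 0, beside 0.43% of all genes. *Sfrp1*, *Sfrp4*, *Dkk1*, *Dkk2* and *Wif1* had 10 or fewer counts in every library, which limits the precision of their values.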

Other observations

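*Runx2*, a transcription factor of the osteoblast lineage, was at 90.2 ± 7.06 CPM (SD, n = 3) in WT and 73.2 ± 1.11 CPM in Y428F libraries with vehicle (log2 fold change -0.30, Benjamini-Hochberg-adjusted p = 0.000919, edgeR quasi-likelihood test). With PTH it was at 86.7 ± 2.42 and 78.1 ± 6.73 CPM and was not called between the lines (log2 fold change -0.15, adjusted p = 0.0765). *Sp7*, *Alpl*, *Bglap* and *Ibsp*, which mark more mature osteoblasts, had at most 7 counts in any library. Of the osteocyte markers, *Sost*, itself a WNT antagonist, had 0 counts and *Phex* rose with PTH in WT cells by 1.15 on the log2 scale (adjusted p = 0.0371), with means of 0.796 ± 0.15 and 1.77 ± 0.235 CPM. Its log2 response in the Y428F line was 0.62 (adjusted p = 0.128), and the difference in response was not called (adjusted p = 0.871). *Phex* was also called higher in Y428F than in WT cells, by 1.44 with vehicle and 0.912 with PTH on the log2 scale. Its Y428F means were 2.16 ± 0.702 CPM with vehicle and 3.33 ± 0.734 CPM with PTH.

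*Pparg*, a regulator of adipocyte formation, rose with PTH in both lines. It was at 31.7 ± 1.40 CPM with vehicle and 45.3 ± 4.36 CPM with PTH in WT cells (log2 fold change 0.52, adjusted p = 0.00135), and at 39.9 ± 0.864 and 65.0 ± 2.71 CPM in Y428F cells (log2 fold change 0.71, adjusted p = 9.62e-07). It was also higher in Y428F than in WT cells, by 0.33 with vehicle (adjusted p = 0.000835) and 0.52 with PTH (adjusted p = 2.85e-06) on the log2 scale. *Adipoq* had 0 counts in all libraries. *Fabp4* was lower in Y428F cells with vehicle, at 6.57 ± 0.632 against 26.9 ± 5.79 CPM (log2 fold change -2.03, adjusted p = 8.67e-11), and *Sox9*, a regulator of chondrocytes, was at 18.5 ± 0.784 against 55.1 ± 7.94 CPM (log2 fold change -1.58, adjusted p = 5.64e-11). *Acan*, a product of mature chondrocytes, had 0 counts.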
